A study of Mus musculus with 6 samples.

Results

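MYC and 9 genes of ribosome assembly in the nucleolus (NCL, NPM1, FBL, NOP56, NOP58, DKC1, NOLC1, PES1 and NOC2L) were followed in A375, an established human melanoma cell line. They were taken by Ensembl identifier, 10 of the 62492 identifiers in the deposited expression table, and the table itself carries no gene symbols. RNA sequencing was done on 6 libraries: 2 with guides against YAE1, 2 with guides against ABCE1 and 2 with control guides. All cells, controls included, received lentivirus with CRISPR/Cas9 and a guide RNA and were selected with puromycin (10 µg/mL), and RNA was taken 7 days after selection. The control guides targeted LacZ or Luciferase, genes that human cells lack, and the labels do not say which control library carried which. The genotype labels read Yae1 knockout and Yae2 knockout for the YAE1 libraries, Abce1 knockout and Abce2 knockout for the ABCE1 libraries and wild type for the controls, so samples were grouped by title. The labels mention no clone. Whether libraries of a group came from separate cultures or separate guides is not stated, so the spread behind each p-value is that between libraries and could be technical only. The targeted genes and the melanoma markers could not be looked up by symbol in this table and were not analysed here.

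ABCE1 is an iron-sulfur ATPase that splits ribosomes into subunits after termination, and YAE1 with LTO1 helps to load its iron-sulfur cluster. New ribosomes start in the nucleolus, where ribosomal RNA is transcribed, modified under the guidance of small nucleolar RNAs, cut and packed with ribosomal proteins. MYC is a transcription factor that drives cell growth, and ribosomal RNA synthesis and nucleolar assembly factors are among its best known targets. NCL and NPM1 are abundant nucleolar proteins that bind ribosomal RNA and pre-ribosomes. FBL, NOP56 and NOP58 are core proteins of the box C/D particles that methylate ribosomal RNA, while DKC1 is the pseudouridine synthase of the H/ACA particles and NOLC1 is a chaperone of both kinds. PES1 and NOC2L are factors of large subunit maturation.

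Levels are given in FPKM, the authors' fragments scaled to gene length and to the library's fragments, so that genes of different length can be set side by side. Totals per library, worked out from the values, ran from 15713011 fragments (ABCE1 replicate 1) to 18399717.5 (control replicate 1). MYC had the fewest fragments of the 10 genes, 315.5 to 591 per library, a counting error of at most 5.63%. NPM1 had the most, 37110.5 to 65579.5. For the 9 nucleolar genes the counting error was 2.23% or less in every library. Libraries of 1 group correlated at r = 0.992 to 0.994 across 12578 genes on the log2(FPKM + 1) scale, and libraries of different groups at 0.942 to 0.98.

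Relative to control guides, MYC was higher in both knockouts and most of the 9 nucleolar genes were lower. With YAE1 guides MYC rose and all 9 nucleolar genes fell, with a median log2 change of -0.49 over the 9. With ABCE1 guides MYC rose and 8 of the 9 fell, PES1 being the exception, with a median of -0.47. Tests were run with limma on log2(FPKM + 1) over the 12578 genes averaging 1 FPKM or more, which all 10 genes passed, at an adjusted p under 0.05. Calls were common: 51.8% of tested genes were called with YAE1 guides (34.2% higher, 17.6% lower) and 57.9% with ABCE1 guides (37.5% higher, 20.4% lower). The median log2 change of all tested genes was 0.10 in both. Both comparisons use the same 2 control libraries.

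The summed level of the 9 nucleolar genes was 1258 and 1187 FPKM in the YAE1 libraries, 1229.7 and 1229.2 FPKM in the ABCE1 libraries, and 1799 and 1770.1 FPKM in the controls. NPM1 alone averaged 626, 618 and 919 FPKM in these groups, so the sum and its share mostly follow that gene. No knockout library came near a control, and the YAE1 and ABCE1 libraries overlapped. As a share of all summed FPKM the 9 genes made up 0.472% and 0.457% with YAE1 guides, 0.488% and 0.489% with ABCE1 guides, and 0.711% and 0.698% with control guides. Such values are shares of a library total, so a fall of these transcripts cannot be told from a rise of others. Each library pools many cells, so fewer cells with a transcript and less RNA per cell cannot be told apart either.

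**Figure D1:**
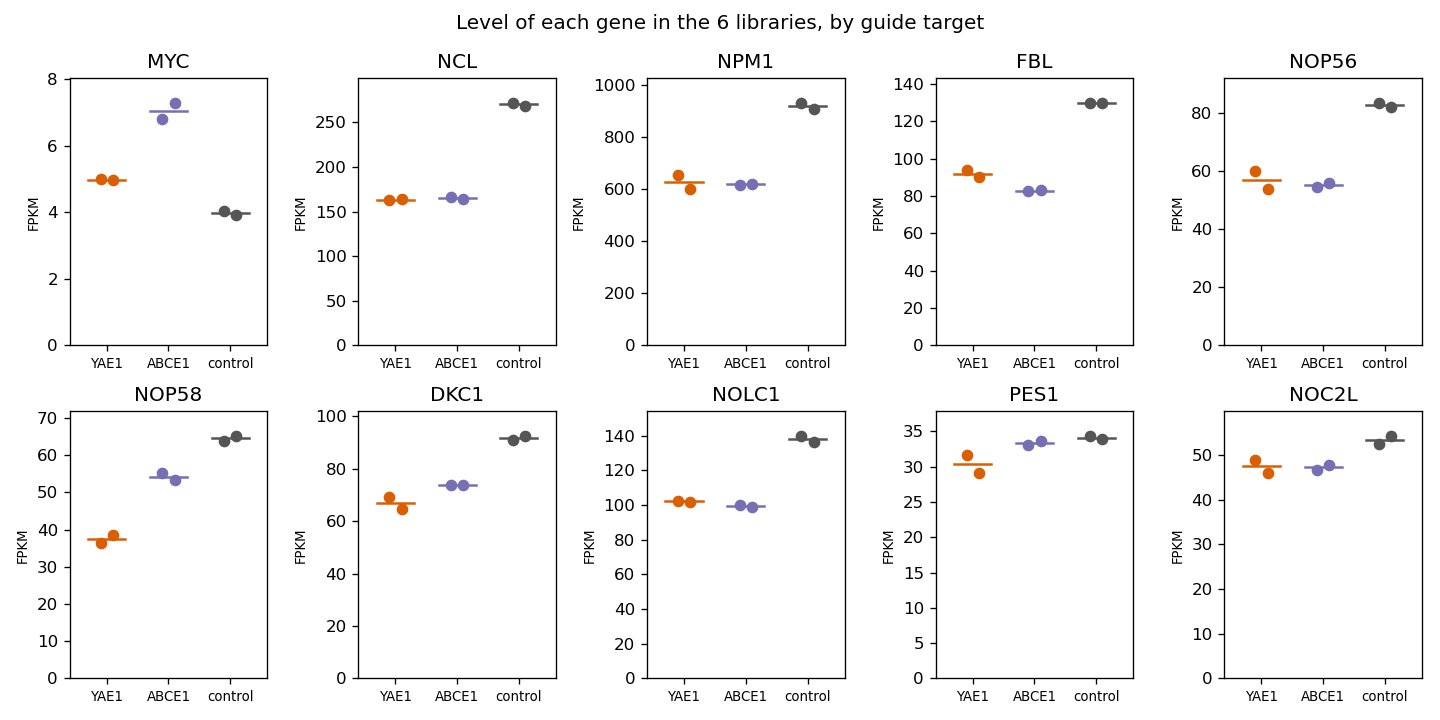
FPKM of each of the 10 genes in the 6 libraries, 1 panel a gene with its own axis from 0. Points are libraries and bars are group means of 2 libraries. MYC was highest in the ABCE1 libraries (6.80 and 7.29 FPKM) and lowest in the controls, while the 9 nucleolar genes were highest in the controls.

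The 9 nucleolar genes are abundant, and abundant genes were called lower more often than tested genes as a whole. Among the 1441 tested genes averaging 30 FPKM or more, a level chosen after the values were seen because all 9 lie above it, 33.1% were called lower and 32.3% higher with YAE1 guides, and 40.5% lower and 28.6% higher with ABCE1 guides. The median log2 change of these abundant genes was 0.00 with YAE1 guides and -0.07 with ABCE1 guides. Of the 9, all but PES1 and NOC2L also averaged above 50 FPKM. Among the 777 tested genes averaging 50 FPKM or more, 35.4% were called lower and 31.3% higher with YAE1 guides (median -0.02). With ABCE1 guides 48.6% of these 777 were called lower and 23.6% higher (median -0.14). The part of abundance in the lower nucleolar levels was not tested further. Most genes separated the groups: the libraries did not overlap for 77.7% of tested genes with YAE1 guides and 81.5% with ABCE1 guides, so the lack of overlap with the controls in all 10 genes is read against that high background.

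The scale of the table also bears on every change. Centring each library on its median gene moved all log2 changes by -0.097 with YAE1 guides and -0.139 with ABCE1 guides, and the share of calls that were higher went to 49.1% with YAE1 guides (66.0% on the authors' scale) and to 45.5% with ABCE1 guides (64.8%). After centring, the 9 nucleolar genes were all called lower in both knockouts, against 24.8% of all tested genes with YAE1 guides and 31.1% with ABCE1 guides. MYC was then called higher with ABCE1 guides and not with YAE1 guides. With quantile normalization 8 nucleolar genes were called lower in each knockout, all but NOC2L with YAE1 guides (22.8% of all tested genes lower) and all but PES1 with ABCE1 guides (28.4% lower).

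MYC (ENSG00000136997), the transcription factor of the set, had 4.98 and 4.98 FPKM in the YAE1 libraries, 6.80 and 7.29 FPKM in the ABCE1 libraries, and 4.03 and 3.91 FPKM in the controls. The 3 groups did not overlap, and the ABCE1 libraries were highest. It rose 1.78-fold with ABCE1 guides, to a mean of 7.05 ± 0.344 FPKM, against 3.97 ± 0.0833 FPKM in the controls (SD, n = 2 each). On the log2 scale MYC changed by 0.70 ± 0.06 (SE, limma adjusted p = 0.00016), and 90.1% of tested genes had a lower change. With YAE1 guides the rise was 1.26-fold, to 4.98 ± 0.00196 FPKM (SD, n = 2), and 69.7% of tested genes had a lower change. The 2 YAE1 values nearly coincide, and their SD does not measure counting error, which is up to 5.63% for MYC. The log2 change with YAE1 guides was 0.27 ± 0.06 (limma adjusted p = 0.01). That call was lost on centring (0.17, limma adjusted p = 0.055), with quantile normalization (0.15, limma adjusted p = 0.085) and without control replicate 2 (0.25, limma adjusted p = 0.056). With ABCE1 guides MYC was called under every alternative, at limma adjusted p of 0.0021 or less. The change there was 0.43 with a pseudocount of 5, which shrinks the change of a gene at this level. It was 0.81 with a pseudocount of 0.1 and 0.83 with voom on recovered fragments.

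NCL (ENSG00000115053), nucleolin, had 163 and 164 FPKM with YAE1 guides, 166 and 164 FPKM with ABCE1 guides, and 272 and 268 FPKM with control guides. The knockout libraries lay together, well below both controls. NCL fell by 39.5% with YAE1 guides (log2 change -0.72 ± 0.04, SE, limma adjusted p = 4.3e-05). It fell by 38.8% with ABCE1 guides (-0.71 ± 0.04, limma adjusted p = 2.3e-05), the largest fall among the 10 genes in that knockout. Only 3.73% and 3.79% of tested genes had lower changes with YAE1 guides and with ABCE1 guides.

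NPM1 (ENSG00000181163), nucleophosmin, was the most abundant of the set and ranked 29 among all tested genes by mean level. It had 653 and 599 FPKM with YAE1 guides, 617 and 619 FPKM with ABCE1 guides, and 931 and 907 FPKM with control guides. The controls were again apart from all 4 knockout libraries, which overlapped with each other. NPM1 fell by 31.9% with YAE1 guides (log2 change -0.56 ± 0.05, limma adjusted p = 0.00026) and fell by 32.8% with ABCE1 guides (-0.57 ± 0.05, limma adjusted p = 0.00016). With quantile normalization the ABCE1 change was -0.32 (limma adjusted p = 0.0081). NPM1 has many processed pseudogenes in the human genome, and how reads shared with them were counted is not given in the sources used here, so its level is uncertain.

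**Figure D2:**
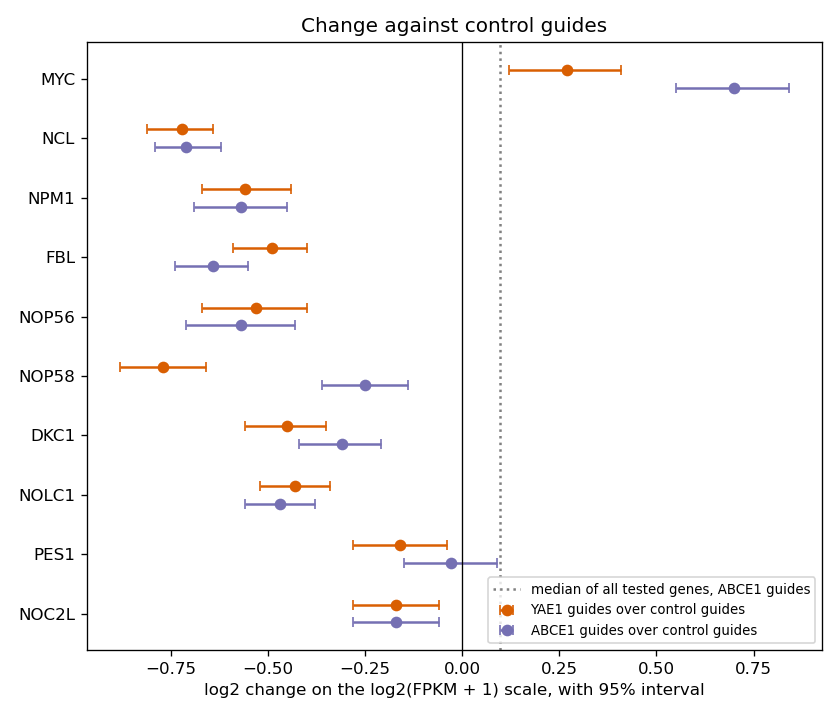
Log2 change against control guides on the log2(FPKM + 1) scale for each of the 10 genes, with the 95% interval of the limma fit, YAE1 guides above ABCE1 guides. The dotted line is the median of all tested genes with ABCE1 guides. MYC lies right of 0 in both, NOP58 and MYC have intervals that do not meet between the knockouts, and the interval of PES1 with ABCE1 guides (-0.15 to 0.09) spans 0.

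All 3 box C/D core protein genes in this set fell in both knockouts, and of the 3 NOP58 differed most between the knockouts. FBL (ENSG00000105202), fibrillarin, is the methyltransferase of the particle. It had 94.0 and 89.9 FPKM with YAE1 guides, 82.8 and 83.0 FPKM with ABCE1 guides, and 130.0 and 129.8 FPKM with control guides. The order of the groups, ABCE1 lowest and controls highest, held without overlap. FBL fell by 29.2% with YAE1 guides (log2 change -0.49 ± 0.04, limma adjusted p = 0.00017) and fell by 36.2% with ABCE1 guides (-0.64 ± 0.04, limma adjusted p = 4.5e-05).

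NOP56 (ENSG00000101361), a scaffold protein of the particle, had 60.1 and 53.8 FPKM with YAE1 guides, 54.7 and 56.0 FPKM with ABCE1 guides, and 83.6 and 82.0 FPKM with control guides. The YAE1 libraries differed from each other by 11.8%, the widest gap within a group among the 10 genes, and enclosed both ABCE1 values. NOP56 fell by 31.2% with YAE1 guides (log2 change -0.53 ± 0.06, limma adjusted p = 0.00053) and fell by 33.2% with ABCE1 guides (-0.57 ± 0.06, limma adjusted p = 0.00027).

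NOP58 (ENSG00000055044), the second scaffold protein, had 36.4 and 38.6 FPKM with YAE1 guides, 55.1 and 53.3 FPKM with ABCE1 guides, and 63.9 and 65.2 FPKM with control guides. Here the 3 groups stood apart, with the YAE1 libraries lowest. NOP58 fell by 41.8% with YAE1 guides (log2 change -0.77 ± 0.05, limma adjusted p = 6.7e-05), the largest fall among the 10 genes there. With ABCE1 guides it fell by 16.1% (-0.25 ± 0.05, limma adjusted p = 0.0037), and after centring the change was -0.39.

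The balance among the box C/D transcripts was also compared. The ratio of NOP58 to NOP56 within a library was 0.606 and 0.718 with YAE1 guides, 1.01 and 0.952 with ABCE1 guides, and 0.764 and 0.796 with control guides. The ABCE1 libraries were above the controls and the YAE1 libraries below them. The YAE1 values lay further apart than 0.718 lay from the nearer control (0.764). The ratio of FBL to NOP56 was 1.56 and 1.67 with YAE1 guides, 1.51 and 1.48 with ABCE1 guides, and 1.55 and 1.58 with control guides. The YAE1 and control values of this ratio overlapped, and the ABCE1 values lay slightly lower. Pairs outside box C/D also lay apart from the controls with ABCE1 guides, and with YAE1 guides only NPM1 to NCL did. NPM1 to NCL was 4 and 3.65 with YAE1 guides, 3.71 and 3.77 with ABCE1 guides, and 3.42 and 3.38 with control guides. In the same order DKC1 to NOLC1 was 0.674 and 0.634, 0.736 and 0.744, and 0.65 and 0.679. NOC2L to PES1 was 1.54 and 1.58, 1.41 and 1.42, and 1.53 and 1.6. How often ratios of other genes separate the groups was not looked at. Ratios within a library do not depend on its scaling, and with 2 libraries a group they were not tested.

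**Figure D3:**
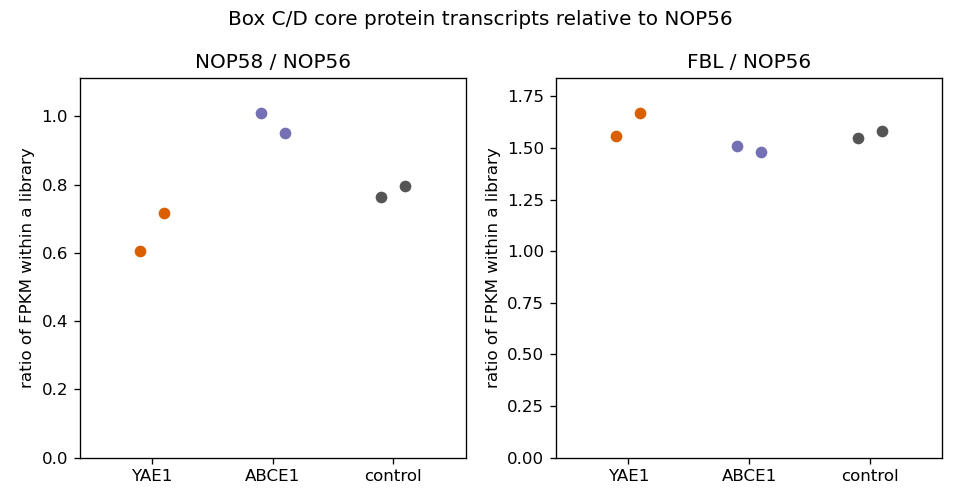
Ratio of NOP58 to NOP56 (left) and of FBL to NOP56 (right) in FPKM within each of the 6 libraries, on linear axes from 0, with 1 point a library. NOP58 relative to NOP56 separates the 3 groups, highest with ABCE1 guides (1.01 and 0.952), while FBL relative to NOP56 spans only 1.48 to 1.67. The YAE1 values of the left ratio (0.606 and 0.718) lie further apart than 0.718 lies from the nearer control (0.764).

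DKC1 (ENSG00000130826), dyskerin, which also stabilises telomerase RNA, had 69.0 and 64.7 FPKM with YAE1 guides, 73.8 and 73.7 FPKM with ABCE1 guides, and 91.0 and 92.6 FPKM with control guides. It was lowest in the YAE1 libraries, with no overlap between groups. DKC1 fell by 27.2% with YAE1 guides (log2 change -0.45 ± 0.04, limma adjusted p = 0.00036) and fell by 19.7% with ABCE1 guides (-0.31 ± 0.04, limma adjusted p = 0.0011).

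NOLC1 (ENSG00000166197), the chaperone also known as Nopp140, had 102 and 102 FPKM with YAE1 guides, 100.3 and 99.0 FPKM with ABCE1 guides, and 140.0 and 136 FPKM with control guides. All 4 knockout libraries lay within a few FPKM of each other. NOLC1 fell by 26.0% with YAE1 guides (log2 change -0.43 ± 0.04, limma adjusted p = 0.00022) and fell by 27.9% with ABCE1 guides (-0.47 ± 0.04, limma adjusted p = 0.00011).

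The large subunit factors had the smallest differences from control among the 9. PES1 (ENSG00000100029), which works with BOP1 and WDR12, had 31.7 and 29.2 FPKM with YAE1 guides, 33.1 and 33.6 FPKM with ABCE1 guides, and 34.4 and 33.9 FPKM with control guides. The ABCE1 and control libraries were within 2 FPKM of each other. With ABCE1 guides PES1 did not pass the test (log2 change -0.03, 95% interval -0.15 to 0.09, limma adjusted p = 0.63), and after centring it was called lower (-0.17, limma adjusted p = 0.036). With YAE1 guides it fell by 10.8% (-0.16 ± 0.05, limma adjusted p = 0.035).

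NOC2L (ENSG00000188976) had 48.9 and 46.0 FPKM with YAE1 guides, 46.7 and 47.8 FPKM with ABCE1 guides, and 52.5 and 54.3 FPKM with control guides. The knockout libraries overlapped with each other and lay just under the controls. NOC2L fell by 11.2% with YAE1 guides (log2 change -0.17 ± 0.05, limma adjusted p = 0.023) and fell by 11.5% with ABCE1 guides (-0.17 ± 0.05, limma adjusted p = 0.018).

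The calls of PES1 and NOC2L were lost in several fits with 1 library fewer, mostly with little move in the change itself. PES1 with YAE1 guides was not called without control replicate 1 (-0.15, limma adjusted p = 0.15), control replicate 2 (-0.17, 0.11), YAE1 replicate 2 (-0.10, 0.095) or either ABCE1 library (-0.16, 0.063 for each), although the ABCE1 libraries enter that comparison only through the shared spread. NOC2L with YAE1 guides was not called without control replicate 1 (-0.19, limma adjusted p = 0.065), control replicate 2 (-0.14, 0.13) or YAE1 replicate 2 (-0.12, 0.063). NOC2L with ABCE1 guides was not called without ABCE1 replicate 1 (-0.16, limma adjusted p = 0.097), ABCE1 replicate 2 (-0.19, 0.057), control replicate 1 (-0.20, 0.052) or control replicate 2 (-0.15, 0.11). NCL, NPM1, FBL, NOP56, NOP58, DKC1 and NOLC1 were called lower in both knockouts under every alternative run.

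**Figure D4:**
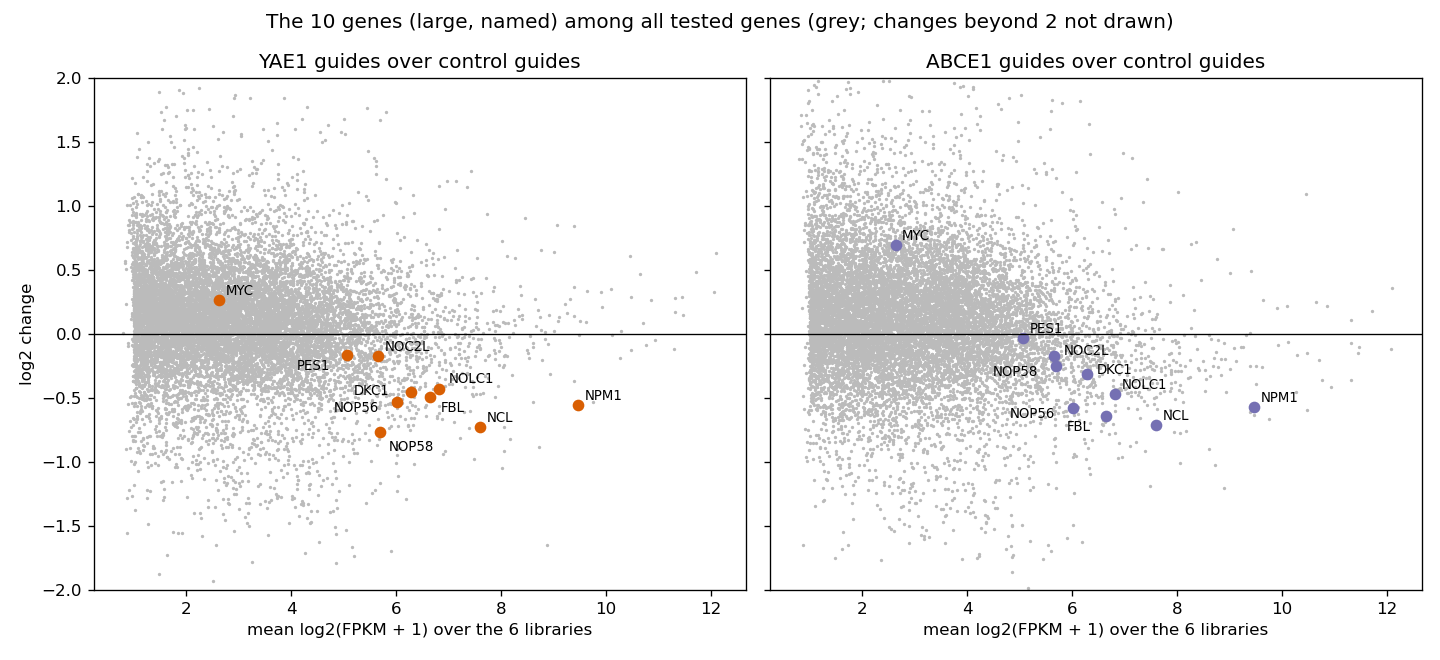
Log2 change against control guides (vertical) by mean log2(FPKM + 1) over the 6 libraries (horizontal), YAE1 guides on the left and ABCE1 guides on the right. Grey points are tested genes, of which 28 with YAE1 guides and 75 with ABCE1 guides lie beyond a change of 2 and are not drawn, and large points are the 10 genes. The 9 nucleolar genes lie below 0 on the abundant side, and MYC lies above 0 at a mean of 5.33 FPKM.

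Set directly against each other, the knockouts differed in 3 of the 10 genes. With YAE1 guides NOP58 and MYC were lower than with ABCE1 guides and FBL was higher. The background in this comparison was 34.0% of tested genes called (15.3% higher and 18.7% lower with YAE1 guides), so 3 of 10 is near the share of all genes. The YAE1 and ABCE1 libraries did not overlap for 7 of the 10 genes, against 70.2% of all tested genes. NOP58 averaged 37.5 ± 1.57 FPKM with YAE1 guides and 54.2 ± 1.27 FPKM with ABCE1 guides (SD, n = 2 each), a log2 difference of -0.52 ± 0.05 (limma adjusted p = 0.0021). MYC averaged 4.98 ± 0.00196 FPKM with YAE1 guides, where the 2 libraries nearly coincided, and 7.05 ± 0.344 FPKM with ABCE1 guides. The log2 difference of MYC was -0.43 ± 0.06 (limma adjusted p = 0.0046). Both calls held under every alternative run. Only 5.2% of tested genes had a lower difference than NOP58, and 8.15% a lower one than MYC.

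FBL averaged 92.0 ± 2.92 FPKM with YAE1 guides and 82.9 ± 0.159 FPKM with ABCE1 guides (SD, n = 2 each), a log2 difference of 0.15 ± 0.04 (limma adjusted p = 0.029). It was not called without ABCE1 replicate 1 (0.15, limma adjusted p = 0.13), ABCE1 replicate 2 (0.15, 0.12), YAE1 replicate 1 (0.12, 0.06), control replicate 1 (0.15, 0.067) or control replicate 2 (0.15, 0.066). With the replicate block it was not called either (0.15, limma adjusted p = 0.051). The call was also lost with no filter (0.15, limma adjusted p = 0.081) and with only the 4 libraries compared (0.15, 0.067). DKC1 had a difference of -0.14 (95% interval -0.25 to -0.03, limma adjusted p = 0.051) and was called in 4 of 15 alternatives. These were without YAE1 replicate 1 (-0.19, limma adjusted p = 0.024), with a mean of 5 FPKM or more (-0.14, 0.042), with quantile normalization (-0.18, 0.013) and with voom on recovered fragments (-0.14, 0.038). PES1 had a difference of -0.13 (-0.25 to -0.01, limma adjusted p = 0.093) and was called in 1 of 15 alternatives, without YAE1 replicate 1 (-0.19, limma adjusted p = 0.032).

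The other 5 genes had differences near 0. The 95% intervals ran from -0.10 to 0.07 for NCL, -0.10 to 0.14 for NPM1, -0.10 to 0.18 for NOP56, -0.05 to 0.13 for NOLC1 and -0.11 to 0.12 for NOC2L. The limma adjusted p of these 5 lay between 0.46 and 0.94. With quantile normalization NPM1 was called lower with YAE1 guides (-0.27, limma adjusted p = 0.027), against a difference of 0.02 on the authors' scale. The share of calls that were higher went to 56.0% on centring, against 45.1% on the authors' scale.

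**Figure D5:**
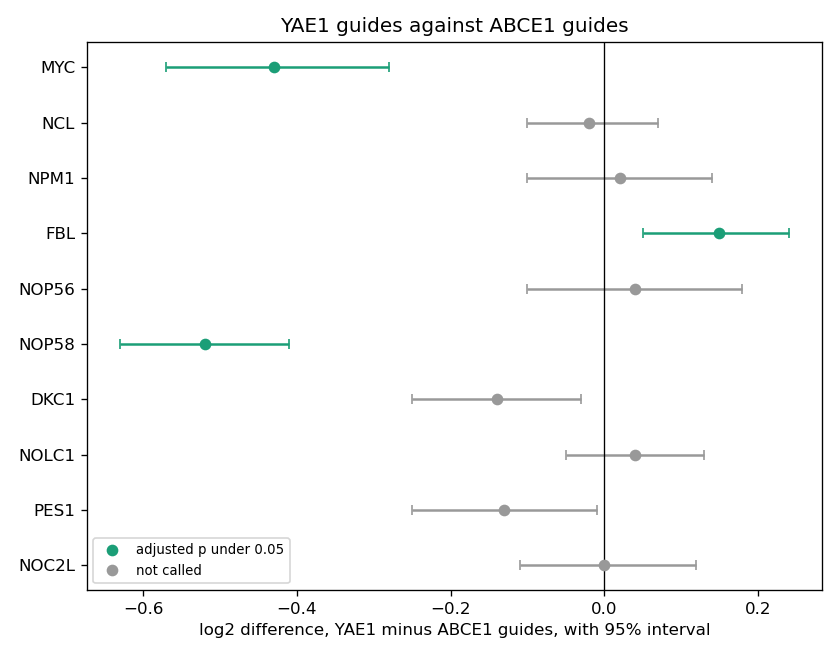
Log2 difference of YAE1 minus ABCE1 guides for each of the 10 genes with the 95% interval of the limma fit. Green points passed an adjusted p of 0.05 and grey points did not. NOP58 (-0.52) and MYC (-0.43) lie far left of 0, FBL (0.15) lies to the right, and the other 7 genes lie between -0.14 and 0.04.

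By mean level over the 6 libraries the order was NPM1 (721 FPKM), NCL (199.7), NOLC1 (113), FBL (102), DKC1 (77.5), NOP56 (65.0), NOP58 (52.1), NOC2L (49.3), PES1 (32.6) and MYC (5.33). The order of group means was the same in the controls and the ABCE1 libraries and differed only in the YAE1 libraries. FBL and NOLC1 were close in the controls (130.0 and 138 FPKM on average), as were NOP58 and NOP56 in the ABCE1 libraries (54.2 and 55.3 FPKM), where their libraries overlapped. In the YAE1 libraries NOP58 (37.5 FPKM on average) fell below NOC2L (47.4 FPKM).

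The genes most like MYC and most like the mean of the 9 nucleolar genes were taken by Pearson r over the 6 libraries on the log2(FPKM + 1) scale, among 7037 other genes averaging 5 FPKM or more. ENSG00000086102 (r = 0.9994) and ENSG00000067064 (r = 0.9991) were most like MYC. ENSG00000086102 averaged 17.0 FPKM with YAE1 guides, 21.7 FPKM with ABCE1 guides and 14.7 FPKM with control guides. ENSG00000112941 (r = 0.9991) and ENSG00000108468 (r = 0.999) were most like the nucleolar mean. ENSG00000108468 averaged 39.7 FPKM with YAE1 guides, 41.2 FPKM with ABCE1 guides and 57.2 FPKM with control guides. An r above 0.99 was reached by 70 genes for MYC and by 54 for the nucleolar mean, and the 6 libraries form only 3 groups, so these are descriptions of like patterns.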

How the data were processed

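The authors deposited 1 table of FPKM values with a column per library. Per the labels' protocols, libraries kept strand, began with 1 µg of RNA and gave paired reads of 150 bp; the submitters' processing notes name GRCh37. No source used here gives the aligner, counting program or annotation. The organism label reads Mus musculus although the cells and identifiers are human. Of 62492 identifiers 0 matched the mouse reference, so gene lists by symbol (MYC partners, snoRNP, RNA polymerase I, processome and large subunit genes, MYC targets, cell type markers), targeted genes and sequences were not analysed here. The symbols of the 10 genes came with their identifiers in the rule that chose them. Genes and lists were chosen with earlier results of these data known.

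Fragment numbers were worked out as the smallest multiples of 0.5 fragments behind the FPKM steps (99.99% of 38269 genes, tolerance 0.0001 of a step), up to an unknown whole factor per gene. Counting errors cover counting only.

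Tests used limma 3.58.1 in R 4.3.3 on log2(FPKM + 1), all 6 libraries in 1 fit, eBayes with trend, Benjamini-Hochberg over the 12578 genes averaging 1 FPKM or more. Residual degrees of freedom were 3, with 3.62 added by moderation. Fold changes on this scale understate changes of low genes; percentages are of group means in FPKM. An exact permutation test of 2 against 2 cannot reach 0.05 and was not used. The 10 genes were all named; like genes were the 2 with the highest r. Scripts were tested on simulated data. Alternatives were pseudocounts of 0.1 and 5, no filter, a mean of at least 5 FPKM, centring, quantile normalization, only the 4 libraries compared, a replicate block, each library left out and voom on recovered fragments.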

Additional observations from a re-analysis of the deposited data

Results flagged for a closer look

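For 3 of the 10 genes the change against control guides differed between the knockouts in the direct test, in which 34.0% of all tested genes were called, so 3 of 10 is near the share of all genes. NOP58 lay lower with YAE1 guides, at a log2 difference from ABCE1 guides of -0.52 (limma adjusted p = 0.0021). MYC also lay lower with YAE1 guides, at -0.43 (limma adjusted p = 0.0046). FBL lay higher with YAE1 guides, at 0.15 (limma adjusted p = 0.029), a call lost in 8 of 15 alternatives (limma adjusted p = 0.017 to 0.13 over the 15). Outlying libraries were not looked for, as each group has 2.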

How the results depend on the processing

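Against control guides, none of the 10 genes changed sign under the 15 alternatives run. The side of the threshold changed 15 times with YAE1 guides (MYC, PES1 and NOC2L) and 6 times with ABCE1 guides (PES1 and NOC2L). With no filter NOC2L was not called with YAE1 guides (limma adjusted p = 0.068) or ABCE1 guides (0.051), nor was PES1 with YAE1 guides (0.098). Between the knockouts, NPM1 turned to -0.27 with quantile normalization, and 5 of the 10 genes were then called (34.4% of all tested genes), against 3. With no filter 2091 genes were called between the knockouts (5.46% of those tested), against 4279 (34.0%). FBL was then not called (limma adjusted p = 0.081). With a mean of at least 5 FPKM 4761 were called for ABCE1 against control guides (67.6%), against 7278 (57.9%). More genes were tested with no filter and fewer at the higher mean, so the shares moved in opposite directions. Leaving out 1 library gave 1811 to 3721 genes between the knockouts, lowest without ABCE1 replicate 1 and 1963 without ABCE1 replicate 2. The cause was not tested. No shift shared by replicate number was seen: differences between replicates 1 and 2 correlated at -0.05 to -0.01 across groups. Whether the libraries were paired by culture or batch is not stated and cannot be read from these values. With the replicate block 10 of the 10 genes were called with YAE1 guides (49.8% of all tested genes), 9 with ABCE1 guides (56.1%) and 2 between the knockouts (3778 of 12578 tested genes), where FBL was lost. MYC, at 315.5 to 591 fragments, is the gene that counting error limits most.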
